A study of Danio rerio with 20 samples.

Results

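The largest axis of variation between individual F2 testes had an upper arm whose named genes included many known from the intestinal epithelium. Its lower arm was mostly without gene names, and 4 of the 34 named genes there were grouped as genes of meiosis and the sperm tail. RNA came from the testes of wild-type zebrafish males (Danio rerio) of the AB strain, adult and 1 year old, and was read on 20 arrays, 1 for each fish. The F0 ancestors had spent 1 h in water with 50 pg/ml of TCDD (2,3,7,8-tetrachlorodibenzo-p-dioxin, a ligand of the aryl hydrocarbon receptor) or with DMSO, the solvent, first at 3 and then at 7 weeks of age counted from fertilization. The arrays cover their F1 and F2 descendants, 5 fish in each of the groups F1 TCDD, F1 DMSO, F2 TCDD and F2 DMSO. The sample titles call only the F2 fish transgenerational offspring. Families and tanks are not given in the labels, and the p-values therefore cover only the variation among the sampled fish.

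The axis was found in the 10 F2 fish alone. Each of 65942 distinct signal profiles was centred on the mean of its lineage, and the first principal component (PC1, the direction of greatest shared variation) was taken without scaling. It held 48.8% of the variation within the F2 lineages, against 12.9% for the second component. The upper arm was the 150 profiles with the highest loading, which is the weight of a profile in the component, and the lower arm the 150 with the lowest, so that 300 profiles of 65942 were members. Members were thus chosen by their log2 signals in the F2 fish, after centring within each lineage, and their F2 pattern is given as a description. At the edge of the upper arm, pls1 entered with a loading of 0.02331 and chia.3 stayed out with 0.02329. At the edge of the lower arm, the loading was -0.00915 for the last unnamed member and -0.00914 for the first unnamed feature outside.

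As background, enterocytes, the absorptive cells of the gut lining, carry digestive enzymes on a brush border of microvilli, take up peptides and fatty acids, and pack fat into apolipoprotein-coated particles. The hind part of the fish intestine also takes up protein and bile acids and digests protein in lysosomes. A testis is made up of germ cells in successive stages of meiosis and sperm formation, Sertoli cells that nurse them, and Leydig cells that make androgens.

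Gene names came from the platform annotation, with symbols updated through RefSeq. In the upper arm 90 of 150 features had exactly 1 symbol (60.0%, 87 genes), in the lower arm 34 (22.7%) and over all profiles 31.5%. Another 1 feature in each arm had several symbols and was left unnamed. Some profiles were shared by identical features. In the lower arm 15 of 150 (10.0%) stood for more than 1 feature, near the 7.61% of all profiles, and in the upper arm 1 (0.67%). Of the 87 placed genes of the upper arm, 7 pairs were neighbours in RefSeq gene order, among them ifit14 with ifit15, olfm4.1 with olfm4.2, and apoa4b.2 and apoa4b.3 on either side of si:dkey-7f3.14. No pair of the 32 placed lower-arm genes was adjacent. Such gene copies are similar in sequence, and whether their probes read each other's RNA was not tested.

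Some arrays stood apart. In F1 TCDD replicate 2 the lists of testis markers were far below those of the other 19 fish: the germ cell list had a mean log2 signal of 6.11 against 8.46 to 10.53, the Sertoli list 7.10 against 9.51 to 11.41, and the Leydig list 6.37 against 9.22 to 11.40. In these other fish the markers of the labelled tissue were present. F1 replicates 1 to 4 of both lineages had array medians of 6.47 to 6.58, and the remaining 12 arrays 6.01 to 6.11. The labels name no batch, and these sets of 8 and 12 arrays are known only from the medians. All F2 arrays lay in the set of 12. Pairwise Pearson correlation between arrays ran from 0.761 to 0.986 across profiles, which are not independent replicates, and 0 pairs were identical.

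In F2 TCDD the upper-arm mean, the average log2 signal of its 150 features, was 5.41, 6.20, 11.16, 9.27 and 5.86 in replicates 1 to 5. In F2 DMSO it was 5.99, 6.15, 6.47, 11.04 and 9.10. So F2 TCDD replicates 3 and 4 and F2 DMSO replicates 4 and 5 were high, the other 6 fish were low, and each lineage held fish of both kinds. The lower-arm mean was 8.38, 7.49, 5.26, 6.16 and 7.19 in F2 TCDD and 7.78, 6.95, 6.57, 5.90 and 6.33 in F2 DMSO. Its lowest fish, F2 TCDD replicate 3 and F2 DMSO replicate 4, were the highest of their lineages in the upper arm, and its highest, replicate 1 of each lineage, were the lowest in the upper arm. The upper arm moved by more: its features spanned a median of 6.20 log2 units over the 10 fish, the lower-arm features 3.35 and all profiles 0.98. A gap of more than 2 log2 units between neighbouring fish was present in 126 upper-arm features, 25 lower-arm features and 1.2% of all profiles. The gap was not scaled to the span, which was smaller in the lower arm.

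**Figure D1:**
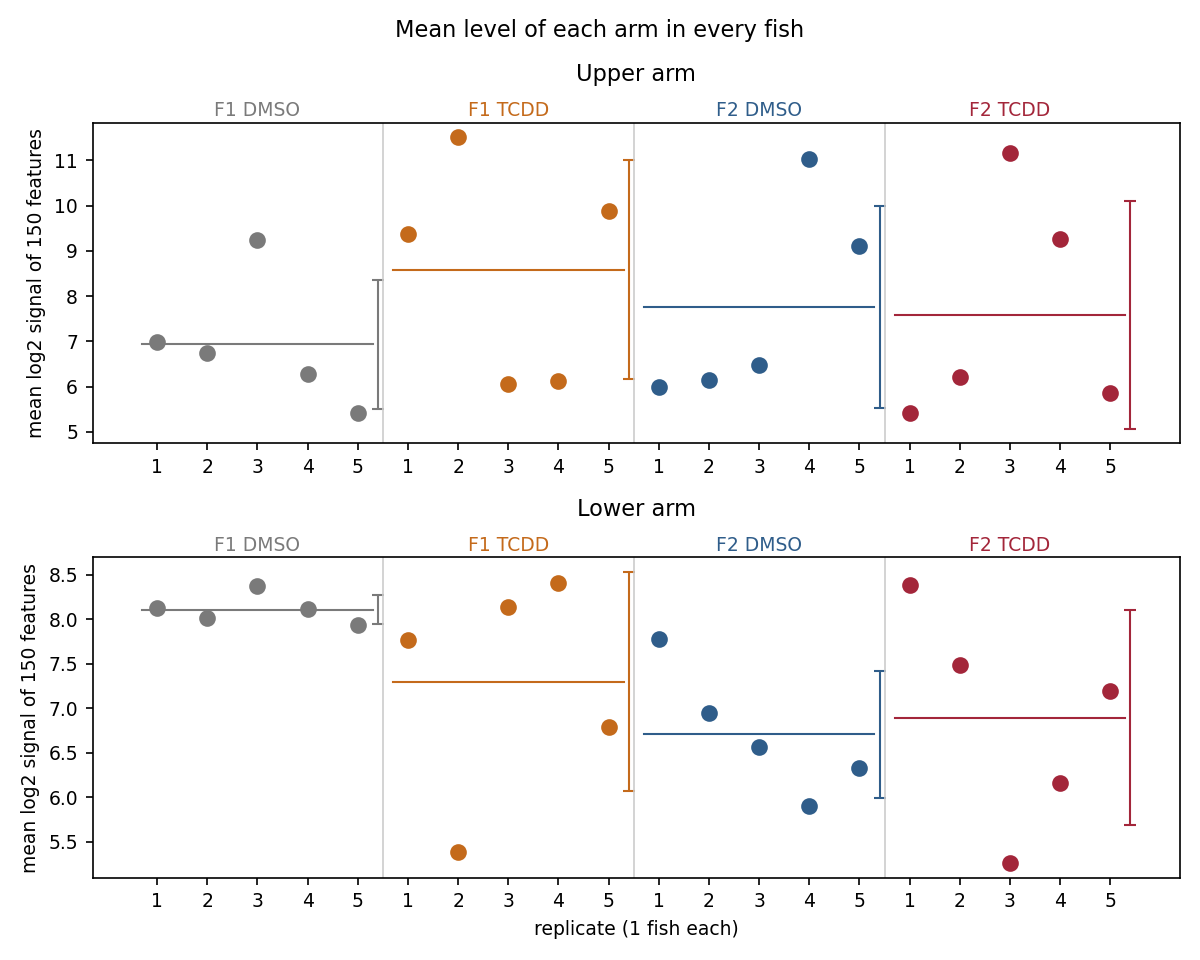
Mean log2 signal of the 150 upper-arm features (top) and the 150 lower-arm features (bottom) in each of 20 fish, with the group mean as a line and its SD as a bar at the right of each group (n = 5). In F2 the upper arm is high in TCDD replicates 3 and 4 and DMSO replicates 4 and 5, and in F1 the lower arm lies within 7.93 to 8.37 in DMSO but spans 5.39 to 8.41 in TCDD.

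Lipid transport genes formed the largest named group of the upper arm, with 13 genes. The 3 apoa4b genes, which encode apolipoprotein A-IV of fat particles, were all members. The signal of apoa4b.2 was 2.25, 3.03, 11.09, 3.13 and 2.43 in F2 TCDD and 2.56, 2.02, 2.86, 8.99 and 3.46 in F2 DMSO. It was high in 1 fish of each lineage and low in all others, the fish with high arm means F2 TCDD replicate 4 and F2 DMSO replicate 5 included. Its neighbour apoa4b.3 had the same form, at 12.06 in F2 TCDD replicate 3 and 9.72 in F2 DMSO replicate 4 against 3.84 to 4.66 in the other F2 fish. The signal of apoa4b.1 departed from this form. It was 10.37 and 9.60 in these 2 fish, but also 6.53 in F2 TCDD replicate 4 and 7.07 in F2 DMSO replicate 5, against 3.89 to 4.66 elsewhere in F2. A second form was seen for fabp2, the intestinal fatty acid binding protein and the only upper-arm member on the gut and pancreas marker list. Its signal was 5.50, 7.24, 12.39, 9.62 and 6.82 in F2 TCDD and 5.77, 6.22, 7.59, 11.86 and 7.89 in F2 DMSO. Here F2 TCDD replicate 4 was intermediate. The phospholipase plb1 was a member through 3 features, and the strongest of them read 11.00 and 10.76 in F2 TCDD replicates 3 and 4 and 12.55 and 11.00 in F2 DMSO replicates 4 and 5, against 5.28 to 6.24 elsewhere in F2.

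Hydrolytic enzymes of the cell surface and of lysosomes were another group, with 9 genes. The aminopeptidase anpepb.1, a brush border enzyme that trims peptides, had signals of 5.29, 7.72, 11.91, 12.02 and 5.86 in F2 TCDD and of 6.83, 6.83, 6.83, 12.57 and 11.15 in F2 DMSO. All 4 high fish were near one another and clear of the other 6. The related anpeplb was at 11.13, 10.90, 11.65 and 10.42 in these 4 fish and at 5.39 to 6.10 in the rest of F2. Genes of this group that were picked after their values were seen included mep1a.1, which encodes the protease meprin A, si, the disaccharide-splitting sucrase-isomaltase, and ctsl.1, a lysosomal cathepsin. The ctsl.1 signal was 12.91 in F2 TCDD replicate 4 and 12.89 and 12.65 in F2 DMSO replicates 4 and 5. It was only 9.92 in F2 TCDD replicate 3, where apoa4b.2 and apoa4b.3 had their highest F2 values. In F2 DMSO replicate 4, where these 2 genes were highest in that lineage, ctsl.1 was high as well.

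The other members by rule had the 4-fish form in different degrees. The cytochrome cyp3a65, a drug-metabolizing enzyme of zebrafish gut and liver whose induction by TCDD is known, was at 5.54, 6.58, 12.76, 10.40 and 6.22 in F2 TCDD and at 6.16, 6.56, 6.69, 11.30 and 10.37 in F2 DMSO. Its high fish were the same 4 in both lineages. Of the other named leaders, lgals2b encodes a galectin, a sugar-binding protein, and nansb a sialic acid synthase, while rnf128b is named as a ring finger protein of the ubiquitin ligase type. In F2 TCDD replicates 3 and 4 lgals2b read 11.99 and 11.07, nansb 10.83 and 10.35, and rnf128b 11.22 and 12.06. In F2 DMSO replicates 4 and 5 the same genes read 11.95 and 10.92, 10.90 and 10.32, and 12.64 and 11.42. The remaining leaders zgc:153968, zgc:123278 and si:ch211-217g15.3 carry provisional names and were highest in F2 TCDD replicate 3 or F2 DMSO replicate 4.

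Several members picked after their values were seen are known as structural or regulatory genes of gut cells. They included vil1 and pls1, which bundle actin in microvilli, cldn15la, a tight junction claudin, and cdx1b, a homeobox factor of the intestine. The cdx1b signal was 5.84, 6.55, 11.34, 10.34 and 6.17 in F2 TCDD and 6.23, 6.33, 6.35, 11.37 and 9.65 in F2 DMSO. Its 4 high fish were again separate from the rest. An intestinal epithelium list of 22 genes, written after the members were seen, had 20 measured features from 18 genes, of which 19 had a positive loading and 8 were members. Over all profiles 33582 of 65942 (50.9%) had a positive loading. Because the loading chose the members and the list was written from knowledge of them, the list's higher share follows in part from how it was made.

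**Figure D2:**
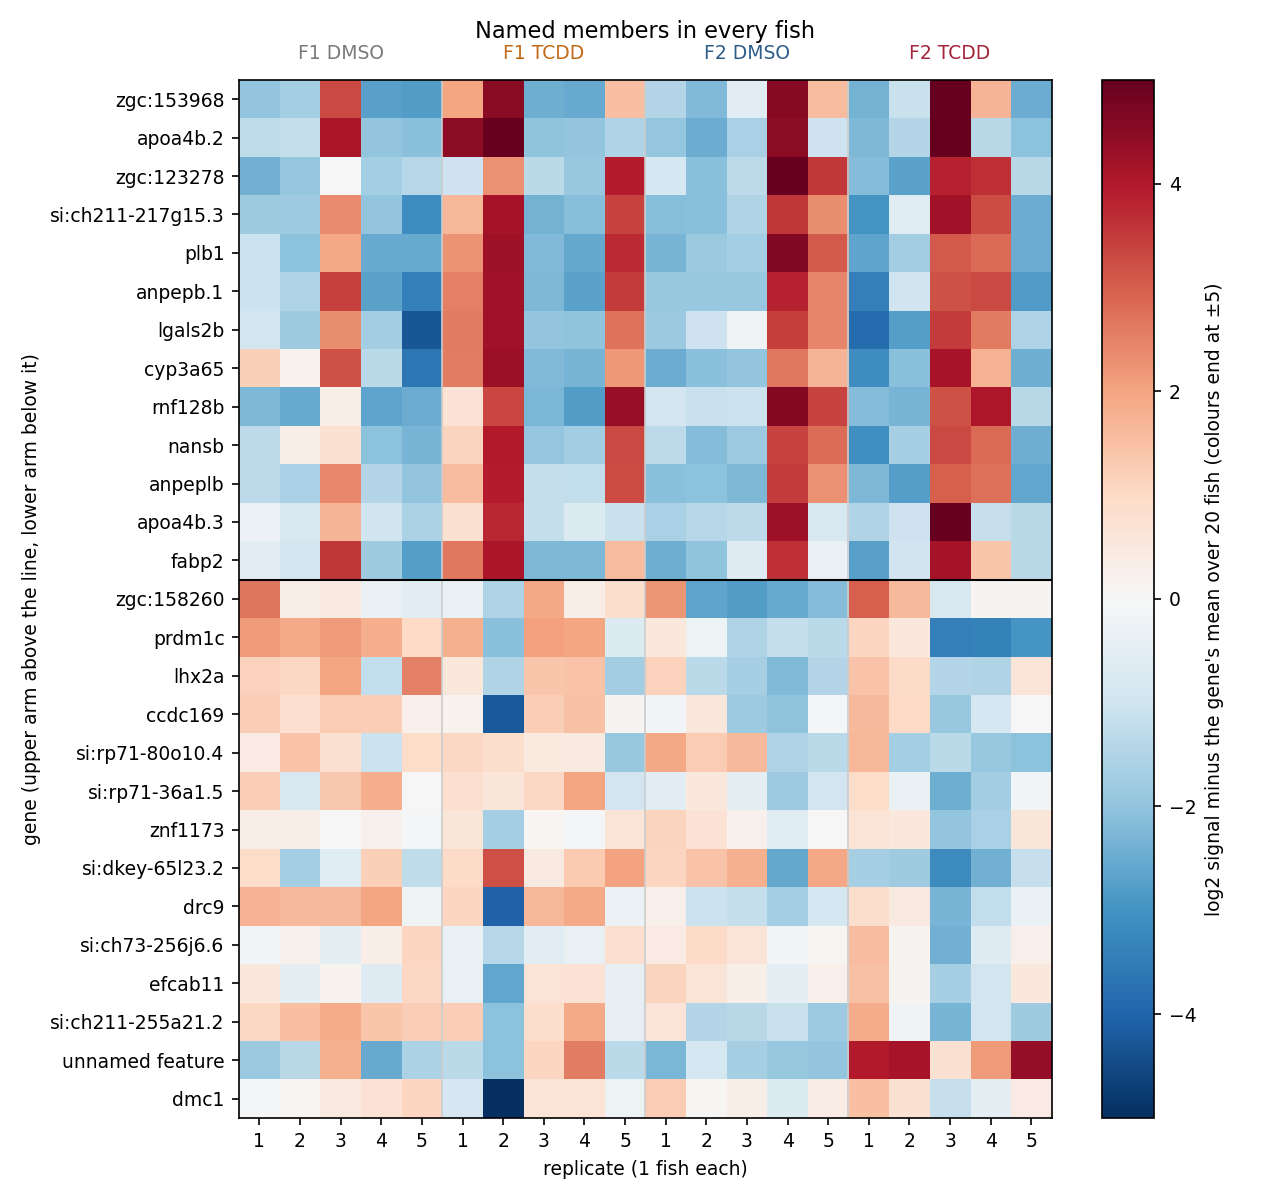
Log2 signal of each named member minus its own mean over the 20 fish (colour, ending at ±5), with upper-arm genes above the line and lower-arm genes and the unnamed feature below it, for every fish in its group. The apoa4b genes are high in 5 fish, most other upper-arm genes also in F1 TCDD replicate 5, F2 TCDD replicate 4 and F2 DMSO replicate 5.

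The upper arm was not uniform within the high fish. For each member the mean of F2 TCDD replicate 3 and F2 DMSO replicate 4 was set against the mean of F2 TCDD replicate 4 and F2 DMSO replicate 5, a measure chosen after the pattern was seen. This difference ran from -1.59 to 6.79 log2 units with a median of 1.62. The 30 members with the highest difference included apoa4b.1, apoa4b.2, apoa4b.3, fabp2, cd36 (a fatty acid uptake receptor), apoea, abcg5 (a sterol exporter), slc15a1b (the intestinal peptide transporter) and the interferon-induced ifit14 and ifit15. The 30 with the lowest included ctsl.1, ctsbb, dpep1, enpep, ace and the aminopeptidases, and fabp6, the ileal bile acid binding protein. In zebrafish slc15a1b is known from the front and fabp6 from the rear of the intestine.

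In F1, whose fish had no part in choosing the genes, this division rests on F1 TCDD replicate 5. That array is in the set of 12 with all F2 arrays, and the part of the array set was not tested. In F1 TCDD replicates 1 and 2 and F1 DMSO replicate 3 both sets of genes were high. The 30 with the highest difference had mean signals of 9.03, 11.24, 5.40, 5.34 and 6.84 in F1 TCDD and 6.44, 6.31, 9.53, 5.60 and 4.69 in F1 DMSO. The 30 with the lowest had 9.76, 11.34, 6.72, 6.67 and 11.76 in F1 TCDD and 6.97, 6.86, 9.38, 6.58 and 6.16 in F1 DMSO. F1 TCDD replicate 5 was thus the highest F1 fish for the second set, and for the first it was just above the low F1 fish (4.69 to 6.44) and well below the high ones. F2 TCDD replicate 4 and F2 DMSO replicate 5 were just above the low F2 fish, at 6.37 and 6.45 in the first set. Their low place there follows in part from sorting the features by these fish. Single genes showed the F1 division. The slc15a1b signal was 10.75, 12.72 and 11.37 in F1 TCDD replicates 1 and 2 and F1 DMSO replicate 3 and 6.36 in F1 TCDD replicate 5. By contrast fabp6 read 9.34, 6.90 and 5.85 in the first 3 of these fish and 13.27 in F1 TCDD replicate 5.

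**Figure D3:**
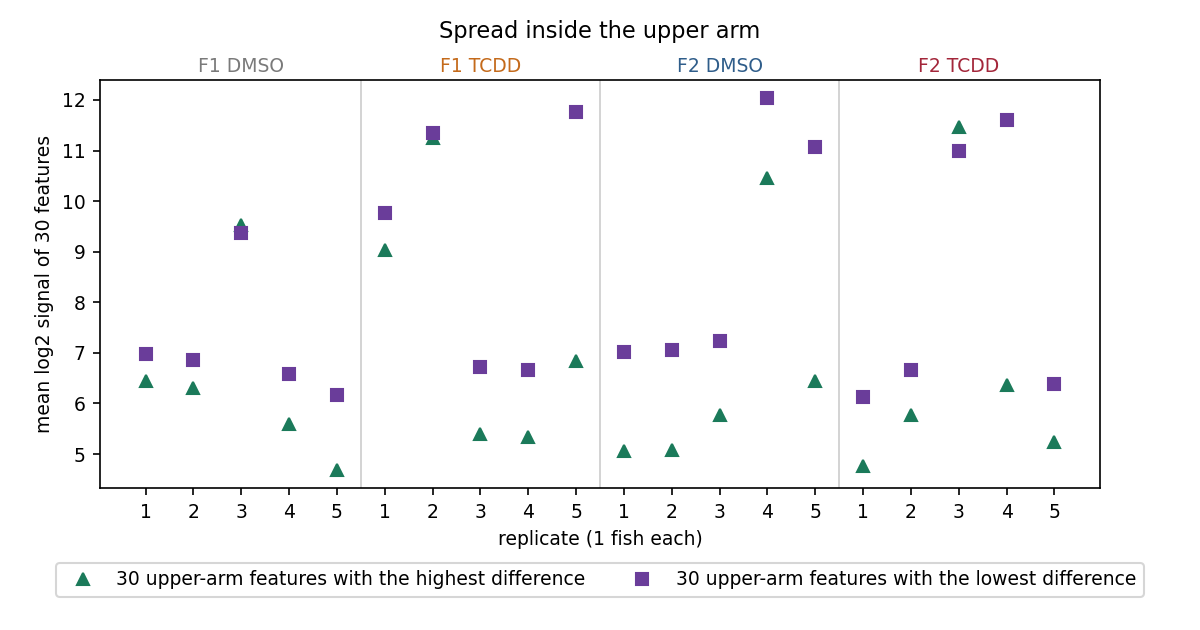
Mean log2 signal in every fish of the 30 upper-arm features with the highest difference (triangles) and the 30 with the lowest difference (squares) between F2 TCDD replicate 3 with F2 DMSO replicate 4 and F2 TCDD replicate 4 with F2 DMSO replicate 5. In F1 TCDD replicate 5, not used to sort the features, the sets stand at 6.84 and 11.76.

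An upper-arm gene known from liver, picked after its values were seen, followed another order in F1. The complement gene c3a.2 read 9.94, 12.55, 5.27, 6.36 and 9.79 in F1 TCDD and 10.43, 8.28, 5.50, 6.47 and 4.11 in F1 DMSO. It was high in F1 DMSO replicate 1, where the arm mean was 6.99, and low in F1 DMSO replicate 3, where the arm mean was 9.24. The liver list was likewise at 10.81 in F1 DMSO replicate 1 and at 6.57 in replicate 3. Of its measured features 6 of 6 had a positive loading and 0 were members. The apolipoprotein genes apoa1a and apobb.1, both upper-arm members, were not lower in F1 DMSO replicate 3 than in replicate 1. They read 8.79 and 12.04 in F1 DMSO replicate 1 and 12.22 and 12.47 in replicate 3, so apobb.1 was high in both.

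Markers of other tissues moved with the upper arm to different degrees. The intestinal epithelium list had a mean of 9.93 and 9.34 in F2 TCDD replicates 3 and 4 and of 10.70 and 8.94 in F2 DMSO replicates 4 and 5, against 6.01 to 6.99 in the other F2 fish. Because 8 of its features are members, this is partly the same data. The liver list was at 9.61, 7.54, 9.65 and 9.71 in the same 4 fish and at 5.78 to 6.92 in the others. The exocrine pancreas list, split from a gut and pancreas list after the data were seen, had a positive loading in 4 of 4 features and 0 members. It stood at 12.60, 13.38, 13.11 and 12.44 in the 4 fish, but also at 13.15 in F2 TCDD replicate 5 and 13.26 in F2 DMSO replicate 3, where the upper arm was low. Only F2 TCDD replicate 1 was low there, at 7.18. All 9 immune features had a positive loading as well. The immune list was at 8.97, 9.08, 9.03 and 8.34 in the 4 fish and at 7.39 to 9.10 in the other F2 fish. It was highest in F2 DMSO replicate 3, where the upper arm was low. No marker list was at 0 in any fish, but the lowest F2 mean of any profile was 1.54, so a mean above 0 does not show presence. Whether a low list mean was array background was not tested. The part of RNA from gut, pancreas or liver in the upper arm was not tested.

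**Figure D4:**
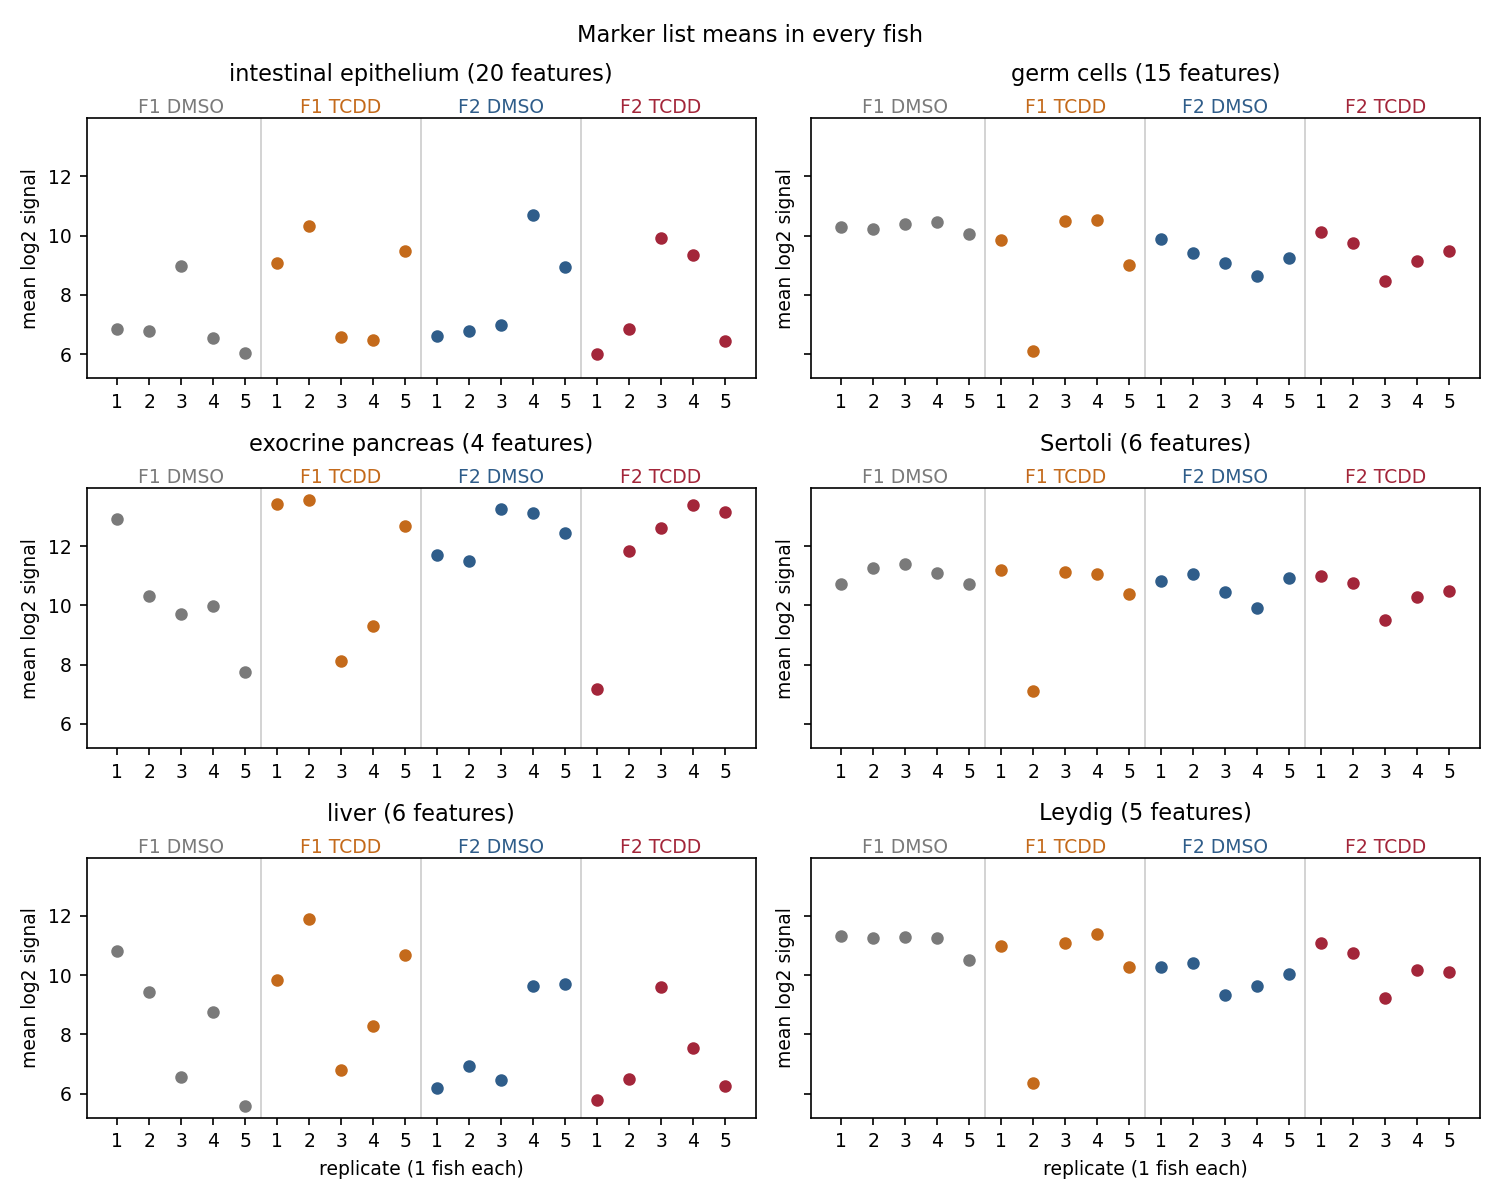
Mean log2 signal of 6 marker lists in every fish. The intestinal epithelium list is high in the fish where the upper arm is high, the exocrine pancreas list in most F2 fish, and the germ cell, Sertoli and Leydig lists are lowest in F1 TCDD replicate 2.

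Of the 34 named genes of the lower arm, 4 were grouped as genes of meiosis and the sperm tail, and most features had no name. In bulk tissue, fewer cells of a type and less RNA per cell cannot be told apart. The meiotic recombinase dmc1, a gene of the germ cell marker list, was at 12.37, 11.61, 9.71, 10.39 and 11.27 in F2 TCDD and at 12.12, 10.90, 11.18, 10.19 and 11.23 in F2 DMSO. It was lowest in replicate 3 of F2 TCDD and replicate 4 of F2 DMSO, and its span was smaller than that of the intestinal genes. The gene drc9, for a subunit of the complex that regulates ciliary dynein, was at 10.60, 10.18, 7.39, 8.49 and 9.40 in F2 TCDD and at 9.96, 8.63, 8.53, 8.02 and 8.86 in F2 DMSO. The same 2 fish were lowest. With ribc1 and spmap2, genes of sperm tail microtubules picked after their values were seen, these 4 genes averaged 8.05 in F2 TCDD replicate 3 and 10.95 in replicate 1.

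Transcription factor genes were the other recognizable set among the lower-arm leaders. The signal of prdm1c, a relative of the zinc finger repressor gene prdm1a, was 10.61, 10.06, 6.14, 6.16 and 6.61 in F2 TCDD and 10.09, 9.28, 8.05, 8.36 and 8.22 in F2 DMSO. It was low in 3 of 5 TCDD fish, and F2 TCDD replicate 5 was low here although its upper-arm mean was among the lowest. The LIM homeobox gene lhx2a read 8.89, 8.41, 6.01, 5.95 and 8.11 in F2 TCDD and 8.59, 6.09, 5.80, 5.24 and 5.98 in F2 DMSO, with 4 high and 6 low fish. The zinc finger gene znf1173 spanned less, from 4.47 in F2 TCDD replicate 3 to 7.56 in F2 DMSO replicate 1. The other leaders with 1 symbol were zgc:158260, ccdc169, efcab11 (an EF-hand protein by name) and the provisionally named si:rp71-80o10.4, si:rp71-36a1.5, si:dkey-65l23.2, si:ch73-256j6.6 and si:ch211-255a21.2. In zgc:158260 all 5 F2 TCDD fish were between 5.95 and 9.75, while 4 of 5 F2 DMSO fish were between 3.95 and 4.59 and replicate 1 was at 8.97.

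Lower-arm features did not share a single order of fish. In 31 of 150 the widest gap set F2 TCDD replicate 3 below all other fish, against 5.796% of all profiles, and in 29 it set F2 TCDD replicate 1 above all others, against 3.737%. In 12 it set F2 TCDD replicates 1, 2 and 5 and F2 DMSO replicate 1 above the other 6 fish, as in lhx2a, with a median gap of 1.93 log2 units; 0.792% of all profiles had that division. In the upper arm 87 of 150 had their widest gap between the 4 high fish and the other 6, against 0.811% of all profiles, and 31 had replicate 3 of F2 TCDD and replicate 4 of F2 DMSO above all others, against 2.341%. These shares follow from the choice of members by F2 signals.

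The testis marker lists had loadings on the lower side: 0 of 15 germ cell features, 0 of 6 Sertoli features and 0 of 5 Leydig features had a positive loading. Only dmc1 was a member. The median loading was -0.00658 for germ cell, -0.00513 for Sertoli and -0.00516 for Leydig features, against -0.00915 at the edge of the lower arm. Counted from the lowest of 65942 loadings, germ cell features ranked from 110 (dmc1) and 265 (ropn1l) to 21332 (a nanos3 feature). In F2 TCDD the germ cell list was at 10.14, 9.75, 8.46, 9.13 and 9.50, and in F2 DMSO at 9.90, 9.41, 9.09, 8.63 and 9.25. Its lowest and highest fish in each lineage were those of the lower arm. The Sertoli list ran from 9.51 to 11.06 and the Leydig list from 9.22 to 11.10 over the F2 fish, each lowest in F2 TCDD replicate 3. The part of germ cell content in the lower arm was not tested.

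Of the remaining lists, the early response list had a positive loading in 5 of 5 features, smooth muscle and stroma in 7 of 8, skeletal muscle in 6 of 7, red blood cells in 2 of 3, endothelium in 2 of 3, ovary in 4 of 13 and fat in 0 of 4, with no member in any of them. Of 7 listed targets of the aryl hydrocarbon receptor, cyp1a, cyp1c1 and cyp1c2 had no feature with exactly 1 symbol and were not read. Of the 4 measured features, for cyp1b1, ahrra, ahrrb and tiparp, 2 had a positive loading and 0 were members. The list mean of these 4 features was 6.81 to 7.32 in F2 TCDD and 6.61 to 6.86 in F2 DMSO.

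F1 replicates 1 to 4, 8 fish whose values did not choose the members, gave an independent view of whether each arm held together. The upper-arm mean was 9.38, 11.51, 6.05 and 6.12 in F1 TCDD and 6.99, 6.74, 9.24 and 6.27 in F1 DMSO. F1 TCDD replicates 1 and 2 and F1 DMSO replicate 3 had the 3 highest of these means. They were the 3 highest fish in 131 of 150 upper-arm features, against 4.69% of all profiles. As the 3 fish are those with the highest mean of the same features, a high count follows in part from picking them. Within lineages, the Pearson correlation between pairs of upper-arm features had a median of 0.95 over these 8 fish, and 150 of 150 correlated positively with the mean of the rest, against 55.4% of other profiles. Without F1 TCDD replicate 2 the median was 0.92 over 7 fish, with 149 of 150 positive and 45.9% of other profiles. These correlations describe fish that fall into low and high sets, and features of 1 fish share an array.

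The lower arm held together less well in F1. Its mean was 7.77, 5.39, 8.14 and 8.41 in F1 TCDD replicates 1 to 4 and 8.12, 8.01, 8.37 and 8.11 in F1 DMSO. Only F1 TCDD replicate 2 was far from the others, and F1 DMSO replicate 3, with a high upper arm, had no low lower arm. The median pair correlation was 0.62 with F1 TCDD replicate 2 and 0.19 without it, when 120 of 150 features correlated positively with the rest, against 51.6% of other profiles. The fish F1 TCDD replicates 1 and 2 and F1 DMSO replicate 3 were the 3 lowest in 16 of 150 lower-arm features, against 3.24% of all profiles. The first component computed anew in the 8 F1 fish held 66.0% of the variation and shared 72 of 150 upper-arm and 12 of 150 lower-arm features, and without F1 TCDD replicate 2 it held 38.0% and shared 22 and 11. A list of 150 is 0.227% of all profiles.

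**Figure D5:**
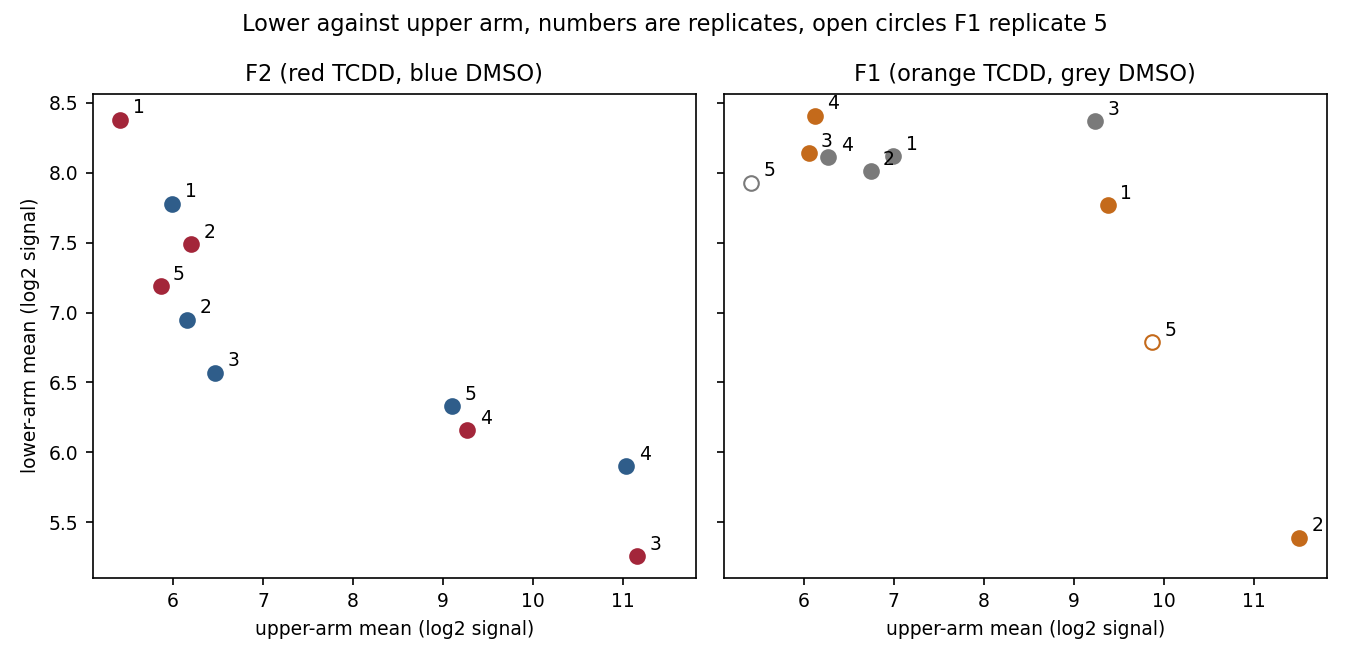
Lower-arm mean against upper-arm mean (log2 signal) for each fish, F2 at the left and F1 at the right, with replicate numbers and open circles for F1 replicate 5. In F2 the lower arm is lower where the upper arm is higher, by selection of the members; in F1 only TCDD replicate 2, at 11.51 and 5.39, is far down, and DMSO replicate 3 has 9.24 and 8.37.

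Whether the arms opposed each other in F1 was examined with a limma model of every profile on lineage and the mean of the other arm over these 8 fish. On the lower-arm mean, 67 of 150 upper-arm features fell (limma, Benjamini-Hochberg adjusted p under 0.05, two-sided), where 19.4% of all profiles fell by the same criterion. The slopes had a median of -1.64 log2 units per log2 unit, and 148 of 150 were negative, against 57.4% of all profiles. On the upper-arm mean, 8 of 150 lower-arm features fell, where 0.508% of all profiles did, with a median slope of -0.39. Without F1 TCDD replicate 2, the array with low testis markers, 0 of 150 upper-arm features passed, as did 0% of all profiles. Falling slopes with an unadjusted limma p under 0.05 were found for 11 upper-arm features, against 4.067% of all profiles. The median slope was then -1.73, with 134 of 150 negative against 48.3% of all profiles. For the lower arm 0 of 150 fell at a limma adjusted p under 0.05 without that array, against 0.0136% of all profiles. Falling slopes with an unadjusted limma p under 0.05 were found for 23, against 4.334% of all profiles. The median slope of the 150 was -0.07. The lower-arm count was also 0 without F1 TCDD replicate 3 or replicate 4, where 14 of 65942 profiles fell in each case. Replicate 5 was then added with the array set as a block, a choice made after seeing the data. In that fit the counts without F1 TCDD replicate 2 were 0 and 1, where 0 and 44 of 65942 profiles fell. The median slopes were -3.24 and -0.13, with 150 and 124 of 150 negative, against 44.2% and 56.8% of all profiles.

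The 2 lineages overlapped along both arms. In F2 the upper-arm mean was 7.58 ± 2.51 (SD, n = 5) in TCDD and 7.75 ± 2.23 in DMSO, and the lower-arm mean was 6.90 ± 1.21 and 6.71 ± 0.71. Each difference was smaller than the spread between fish, but the members were chosen for a large spread within the F2 lineages, so small differences relative to it follow in part from the choice. In the limma model of all 65942 profiles, 1 of 300 members passed the F2 TCDD minus DMSO test at an adjusted p under 0.05, against 48 profiles in all (0.0728%). Before adjustment, 0 upper-arm and 18 lower-arm members had a p under 0.05, against 3.83% of all profiles; these counts carry the same limit. The median upper-arm difference was -0.15 log2 units with a median standard error of 1.37, and the median lower-arm difference 0.19 with 0.72. Single arrays moved both medians. Leaving out replicate 3 of F2 TCDD gave an upper-arm median of -1.03 and a lower-arm median of 0.61, larger with the same signs. Both signs turned without replicate 4 of F2 DMSO (0.66 and -0.02) and without replicate 1 of F2 TCDD (0.41 and -0.17).

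The member that passed was the unnamed lower-arm feature 13014761. Its signal was 8.82, 8.97, 5.62, 6.97 and 9.24 in F2 TCDD and 2.55, 3.98, 3.18, 2.97 and 2.89 in F2 DMSO. All 5 F2 TCDD fish were above all F2 DMSO fish, by 4.81 log2 units in the mean (SE 0.89, limma adjusted p 0.0441). In F1 it was 3.50, 2.81, 5.92, 7.39 and 3.50 in TCDD and 2.99, 3.48, 6.61, 2.31 and 3.25 in DMSO, so that high and low fish occurred in both lineages and the groups overlapped. The F2 call was lost in 14 of the 20 fits that left out 1 array, with the highest limma adjusted p, 0.163, without F2 TCDD replicate 2, and the change stayed between 4.48 and 5.39.

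In F1 the upper-arm mean was 8.59 ± 2.42 (SD, n = 5) in TCDD and 6.93 ± 1.42 in DMSO, and the lower-arm mean 7.30 ± 1.23 and 8.11 ± 0.17. The groups overlapped in both arms. No member passed the limma F1 test (0 of 300, and 0% of all profiles; 2 upper-arm and 13 lower-arm members had an unadjusted p under 0.05, against 7.4% of all profiles). The median difference was 1.72 in the upper and -0.93 in the lower arm, and without F1 TCDD replicate 2 these were 1.00 and -0.44. With limma array weights they were -0.18 and -0.14, so the upper-arm median changed sign. No member passed the test of the difference between the F2 and F1 lineage differences either (0 of 300, and 0% of all profiles; 1 upper-arm and 15 lower-arm members had an unadjusted p under 0.05, against 6.21% of all profiles).

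The smallest p in that comparison among members belonged to si:dkey-65l23.2, a provisionally named gene. Its signal was 6.87, 6.75, 5.34, 6.13 and 7.35 in F2 TCDD and 9.60, 9.95, 10.28, 5.94 and 10.46 in F2 DMSO. In F1 it was 9.48, 11.75, 8.97, 9.83 and 10.53 in TCDD and 9.42, 6.80, 7.89, 9.72 and 7.23 in DMSO. The F2 difference was -2.76 (SE 0.77, limma adjusted p 0.38), the F1 difference 1.90 (SE 0.77, adjusted p 0.558) and the difference between them -4.66 (SE 1.09, adjusted p 0.501), none of which passed. The F2 difference passed in limma when arrays were weighted (-2.95, adjusted p 0.038) and when replicate 4 of F2 DMSO was left out (-3.58, adjusted p 0.0311), the only F2 DMSO fish in the range of the F2 TCDD fish.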

How the data were processed

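Deposited values were log2 signals, 1 per array feature and array, made with Affymetrix Expression Console per the submitters' processing notes; version and normalization are not given in the sources used here, and the log2 scale was read from the values. Of 75212 features, 65942 distinct profiles were kept. The members and gene lists were chosen with earlier results of these data known. Named genes were the 12 leading members of each arm with 1 symbol, members that passed a lineage test (at most 10) and members on the marker lists; others named were picked after their values were seen. Principal components were computed in Python 3.11.15 with numpy 2.4.6. Models were fitted with limma 3.58.1 in R 4.3.3 (lmFit, eBayes), with 1 mean per group over 20 arrays (16 residual degrees of freedom) or over 8 F1 arrays (5 degrees), Benjamini-Hochberg adjusted over all profiles at 0.05. Scripts were tested on simulated data. The number of arrays limits the precision. Alternatives were row scaling, normalization, a dim filter, duplicates, centring, empirical Bayes options, array weights, blocks, and each array left out.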

Additional observations from a re-analysis of the deposited data

Results flagged for a closer look

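In 180 sets of 5 values (the arm means, the marker lists and the named members in each group), 27 values stood far from the other 4 of their group, where chance gives about 1 in 20 sets, or 9.0. Genes that move together are flagged together. The members were also chosen for their spread between F2 fish, so the chance rate does not hold for F2 values of arms and members. In both F1 groups replicate 5 is in another array set than replicates 1 to 4, and this was not allowed for. No cause was tested.

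Upper-arm genes were flagged in 1 high fish of each group except F1 TCDD, where none was. In F1 DMSO replicate 3, zgc:153968 was at 10.53, apoa4b.2 at 8.60, si:ch211-217g15.3 at 10.65, rnf128b at 8.38 and anpeplb at 10.55, against next values of 5.54, 3.29, 6.51, 5.77 and 6.85. The intestinal epithelium list was at 8.97 in that fish, against 6.86 for the next. In F2 TCDD replicate 3, apoa4b.2 was at 11.09 and apoa4b.3 at 12.06, and in F2 DMSO replicate 4 they were at 8.99 and 9.72.

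Lower-arm genes and testis lists were flagged mainly at the low end in F1. In F1 TCDD replicate 2, dmc1 was at 5.89, ccdc169 at 5.18, the Sertoli list at 7.10 and the Leydig list at 6.37. In F1 DMSO replicate 5, prdm1c was at 10.54, drc9 at 9.54, the Leydig list at 10.52 and the early response list at 8.31, all below the other 4 fish. That array is in the set of 12 and the other 4 of its group are in the set of 8. In the F2 arrays, also in the set of 12, the early response list was at 8.40 to 9.62. The gene si:rp71-80o10.4 was low in F1 TCDD replicate 5, at 4.19, whose array likewise differs in set from the other 4. It was high in F2 TCDD replicate 1, at 7.73.

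In F2 DMSO replicate 1, zgc:158260 was at 8.97 and lhx2a at 8.59, above the next fish at 4.59 and 6.09. In F2 DMSO replicate 4, si:dkey-65l23.2 was at 5.94, below the next at 9.60. The unnamed feature 13014761 was at 6.61 in F1 DMSO replicate 3, against 3.48. The exocrine pancreas list was low in F2 TCDD replicate 1, at 7.18, the list of aryl hydrocarbon receptor targets high in F2 TCDD replicate 2, at 7.32, and the early response list high in F2 TCDD replicate 3, at 9.62.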

How the results depend on the processing

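Scaling every row to unit SD kept 9 of 150 upper-arm and 3 of 150 lower-arm members, since rows of small spread then weigh as much as others. For the lower arm, F2 TCDD fish alone kept 96 and F2 DMSO fish alone 35, and the other settings kept 105 or more in both arms apart from single fish left out, where the upper arm kept 98 to 147 and the lower arm 81 to 146 (lowest in each case without F2 TCDD replicate 3). For the F1 counts across arms, 67 upper-arm and 8 lower-arm features, leaving out 1 fish gave 0 to 140 and 0 to 83. In the main fits 12770 and 335 of 65942 profiles fell. Both counts were 0 without F1 TCDD replicate 2, where 0 and 9 profiles fell. They were highest without F1 DMSO replicate 3, where 12118 and 7907 profiles fell. The replicate block gave 12 and 1, where 1763 and 2 profiles fell. With all 10 F1 arrays and the array set as a block the lower-arm count was 18, where 1826 of 65942 profiles fell. Quantile normalization gave a lower-arm count of 5, where 274 fell. Without the dimmer 50% of rows the lower-arm count was 30 of 105 tested, where 2510 of 32971 profiles fell. The array set block without F1 TCDD replicate 2, added after seeing the data, gave 0 and 1, where 0 and 44 profiles fell. The F2 lineage count of 1 became 0 without the dimmer 50% of rows, which leaves out the feature called, 0 with the replicate block (limma adjusted p 0.0944 for that feature), 5 with array weights, where 452 of 65942 profiles passed against 48, and 0 to 4 with 1 array left out. Deviations of same-numbered fish correlated over 0.1 in 4 of 5 F1 pairs and 3 of 5 F2 pairs (-0.02 to 0.40 and -0.14 to 0.60), and 4 and 2 of the TCDD fish correlated best with their own number, a hint from the data and not the design; the numbers were not taken as pairs. The counts of 0 in F1 and in the difference between generations were 0 in all settings run, including 0 to 0 with 1 array left out. The causes of these changes were not tested beyond what each setting leaves out.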
